A study of Mus musculus with 7 samples.

Results

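Lipid droplet proteins and the fatty acid transporter Cd36 were followed in the livers of mice that lack miR-122. They were taken as 10 genes: the perilipins Plin2, Plin3, Plin4 and Plin5, the CIDE proteins Cidea, Cideb and Cidec, the lipase Pnpla2, its inhibitor G0s2, and Cd36. Every probe set whose platform annotation names exactly 1 of these genes was used, which gave 14 probe sets among 45037 that are not controls, and 10 genes among 18193. The study hybridised 1 array per animal, from 3 wild-type livers, called WT-27, WT-103 and WT-104 by the animals' numbers, and 4 mir-122 knockout livers, called KO-03, KO-90, KO-91 or KO-94. All the mice were 2 months old and of B6/129 background. The design of the deleted allele, and the sex, litter, feeding state and hour of collection of the animals, were not stated. Values are log2 expression levels, so a difference of 1 is a 2-fold change, and differences are knockout minus wild type.

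A hepatocyte stores surplus fatty acids as triglyceride in lipid droplets, which are coated by perilipins. Adipose triglyceride lipase, the product of Pnpla2, starts to break the triglyceride down, and G0s2 binds and inhibits it. CIDE proteins work at contacts between droplets and in the loading of lipoproteins. Cd36 brings long-chain fatty acids into the cell. Several of these genes are known targets of PPARα, the nuclear receptor that responds to fatty acids. miR-122 is a microRNA of hepatocytes that represses its target messages, and mice without it are known for fatty liver, which is why these genes are of interest here.

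Of the 10 genes, 4 stood high together in 1 wild-type animal, and the 250 bases before their transcription starts are shown because nuclear receptors such as PPARα read sites built from the letters AGGTCA. Sequences and coordinates come from RefSeq, build GRCm38.p6. Capitals mark AGGTCA or its reverse complement TGACCT.
Plin2, chr4:86670060-86670309, minus strand: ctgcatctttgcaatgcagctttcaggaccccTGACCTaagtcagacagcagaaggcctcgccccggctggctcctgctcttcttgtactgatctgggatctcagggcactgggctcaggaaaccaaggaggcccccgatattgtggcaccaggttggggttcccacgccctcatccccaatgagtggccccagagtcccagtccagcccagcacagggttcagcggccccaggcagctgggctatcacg
Plin5, chr17:56117549-56117798, minus strand: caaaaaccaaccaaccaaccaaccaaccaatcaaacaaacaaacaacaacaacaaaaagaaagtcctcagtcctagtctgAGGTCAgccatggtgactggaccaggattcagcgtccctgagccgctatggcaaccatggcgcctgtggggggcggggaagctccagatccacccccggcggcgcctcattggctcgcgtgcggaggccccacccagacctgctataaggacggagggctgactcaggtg
G0s2, chr1:193273189-193273438, minus strand: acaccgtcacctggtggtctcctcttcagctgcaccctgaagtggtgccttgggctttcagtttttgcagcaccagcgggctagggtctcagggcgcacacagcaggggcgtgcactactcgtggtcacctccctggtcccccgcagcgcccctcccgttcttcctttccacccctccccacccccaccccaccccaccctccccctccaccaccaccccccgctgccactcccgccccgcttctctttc
Cd36, chr5:17835897-17836146, minus strand: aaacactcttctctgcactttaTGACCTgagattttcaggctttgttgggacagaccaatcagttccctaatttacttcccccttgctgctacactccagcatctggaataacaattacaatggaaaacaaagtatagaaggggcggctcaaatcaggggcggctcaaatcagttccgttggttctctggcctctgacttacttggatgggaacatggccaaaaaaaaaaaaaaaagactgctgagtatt
The match begins 218 bases before the start in Plin2, 170 in Plin5 and 228 in Cd36, and G0s2 has none in this window. Windows were found for 9 of the 10 genes (not Cidea), 11 windows in all, and only these 3 held the hexamer. Of 32851 such windows before the annotated transcription starts of genes, 14% held it. The second window of Plin5 held none. A tandem pair with 1 base between its members, AGGTCANAGGTCA on either strand, was in 0 of the 11 windows and in 0.0335% of all. Such matches describe the letters and are no evidence of binding.

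None of the 10 genes was called different between the genotypes after adjustment over all genes. With limma, 0 of 10 were called at an adjusted p under 0.05 and 1, Plin3, had an unadjusted p under 0.05. Over all genes 3.53% were called and 16.4% had an unadjusted p under 0.05. In 0 of the 10 did the knockout arrays all lie above or all lie below the wild types, as they did for 15.8% of all genes. Taken probe set by probe set, 0 of 14 were called, against 1.61% of all probe sets. For 7 of the 10 genes all arrays lay above a floor for levels set by control probe sets, and for 5 of these 7 the 95% interval of the difference lay inside a 2-fold change either way. It reached beyond a 2-fold fall for Plin5 and beyond a 2-fold rise for G0s2. A p that misses the threshold does not show equal levels. Liver RNA is a mixture, in which fewer cells of a type and less RNA per cell cannot be told apart.

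**Figure D1:**
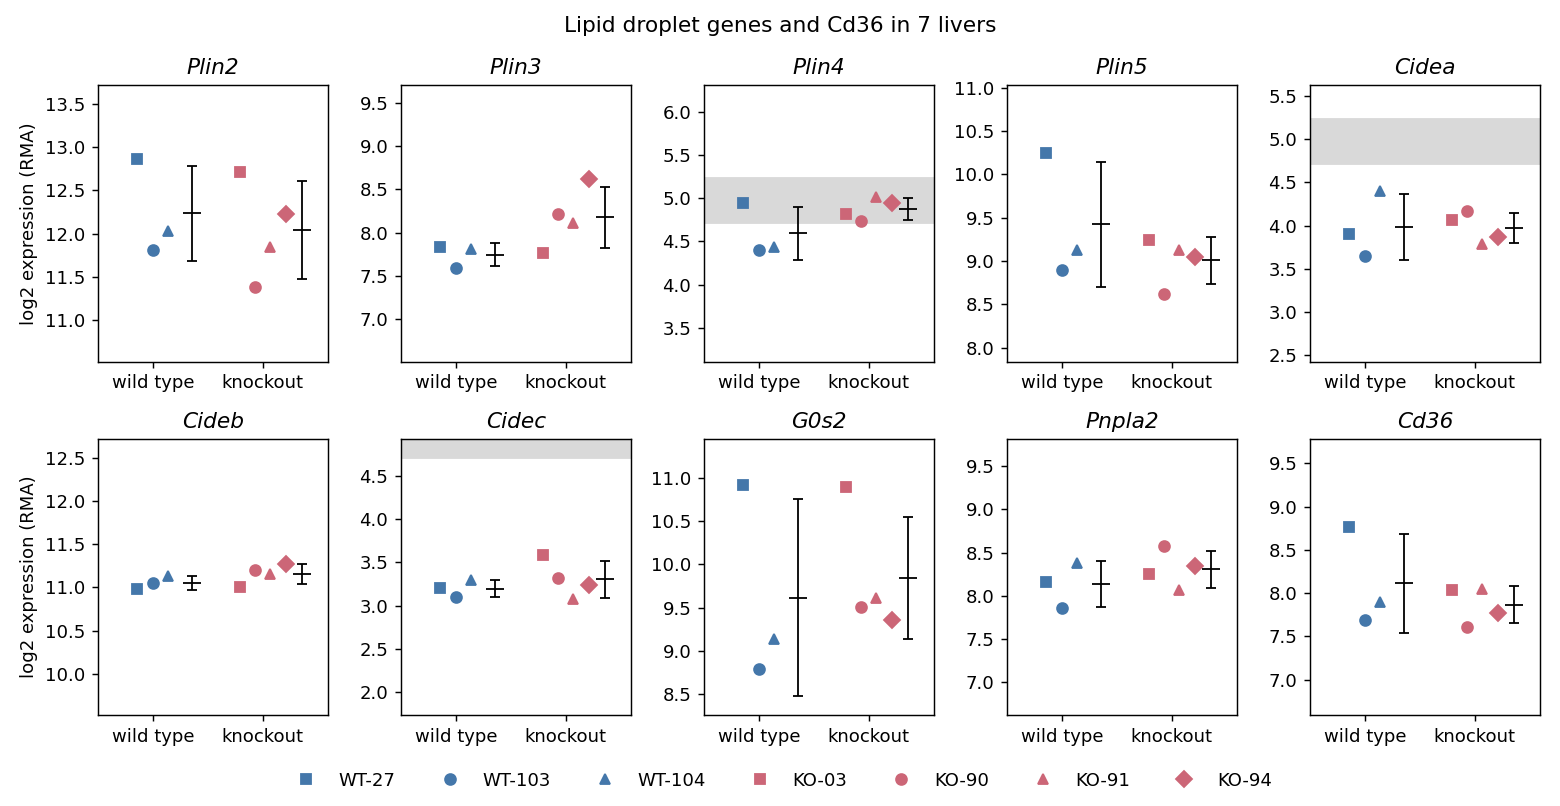
Log2 expression of the 10 genes (1 panel each) in the 3 wild-type and 4 knockout livers, 1 point per array, with the mean and SD of each genotype in black; panels have the same height in log2 units, and the grey band is the range over arrays of the highest of 27 bacterial control probe sets. WT-27 (blue square) is the highest array for Plin2, Plin5, G0s2 and Cd36, and the genotypes overlap in every panel.

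Among the perilipins, Plin2, the coat protein of most hepatocyte droplets, was the clearest case of animals differing within a genotype. Its level was 12.86 in WT-27, 11.82 in WT-103 and 12.03 in WT-104. In knockout it was 12.71 in KO-03, 11.38 in KO-90, 11.85 in KO-91 and 12.23 in KO-94. WT-27 and KO-03 were the highest, and the other arrays of both genotypes were intermixed. The difference was -0.19 ± 0.33 (SE), with a 95% interval from -0.94 to 0.56 (limma adjusted p = 0.842). It was 0.12 without WT-27 and -0.41 without KO-03, so its sign depended on which single animal was left out.

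Plin3, a perilipin that moves between the cytosol and droplets and is also known as a sorting factor, was the member nearest to a call. In the same order, its values were 7.83, 7.60 and 7.81 in wild type and 7.76, 8.22, 8.11 and 8.62 in knockout. KO-90, KO-91 and KO-94 lay above all 3 wild types, while KO-03 lay among them. The difference was 0.43 ± 0.19 (SE), with a 95% interval from 0.01 to 0.86. Its unadjusted p was 0.0467 and its limma adjusted p 0.295. Without KO-03 the difference was 0.57 (adjusted p = 0.0751), and in 0 of 16 alternative fits did Plin3 pass.

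Plin5, the perilipin of oxidative tissues that ties droplets to mitochondria, was measured by a pair of probe sets. The one used for the gene gave 10.25, 8.90 and 9.13 in the wild types in the order above, and 9.24, 8.62, 9.13 and 9.05 in the knockouts. WT-27 stood above every other array, and the remaining 6 overlapped. The difference was -0.42 ± 0.30 (SE), with a 95% interval from -1.10 to 0.27 (limma adjusted p = 0.560). Without WT-27 it was -0.0028. The other probe set of Plin5 gave -0.21 ± 0.29 (SE), and 0.22 without WT-27. The gap between both probe sets' differences was -0.20 (exact two-sided permutation p = 0.314, adjusted p = 0.629 over 4 pairs of probe sets).

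Plin4, a perilipin of adipocytes and muscle whose gene lies next to Plin5, was near the limit of measurement. A level was counted as above the floor where it exceeded the highest of the 27 Bacillus control probe sets of its array, 4.71 to 5.23. Plin4 lay at 4.40 to 4.94 in wild type and 4.74 to 5.02 in knockout, and 5 of 7 arrays were at or under that floor. Only WT-27 and KO-91 exceeded it. The difference of 0.28 ± 0.15 (SE) was not called (limma adjusted p = 0.418).

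Among the CIDE genes, only Cideb, the CIDE protein of hepatocytes that takes part in VLDL lipidation, was above the floor, and it varied least of all members. It read 10.98, 11.05 and 11.13 in wild type and 11.00, 11.20, 11.15 and 11.26 in knockout. The difference was 0.10 ± 0.11 (SE), with a 95% interval from -0.15 to 0.35, so changes of more than 1.27-fold upward lay outside it (limma adjusted p = 0.722). Cidea, a CIDE protein of brown fat, read 3.65 to 4.40 in wild type and 3.79 to 4.17 in knockout. Cidec, the protein that enlarges fat cell droplets and is known to appear in fatty liver, read 3.10 to 3.29 and 3.08 to 3.59. Neither exceeded the floor on any of the 7 arrays, so these arrays do not measure a change in them, and values at that level have no order. Such a level does not show that the transcript was absent.

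Of the lipolysis pair, G0s2 was the most variable member, with a within-genotype SD of 0.90 against 0.23 for Pnpla2. Pnpla2 read 8.16, 7.86 and 8.38 in wild type and 8.25, 8.58, 8.07 and 8.34 in knockout, a difference of 0.17 ± 0.16 (SE) with a 95% interval from -0.20 to 0.54 (limma adjusted p = 0.672). Its second probe set, at 3.51 to 3.89, exceeded the floor on no array. G0s2 read 10.92 in WT-27, 8.80 in WT-103 and 9.13 in WT-104. In knockout it read 10.89 in KO-03 and 9.51, 9.62 and 9.36 in the other animals. WT-27 and KO-03 were thus far above all other arrays, and they came from opposite genotypes. Below them, the remaining 3 knockouts lay above the remaining wild types.

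The G0s2 difference was 0.23 ± 0.52 (SE), with a 95% interval from -0.96 to 1.41 (limma adjusted p = 0.884). It was 0.88 ± 0.40 (SE) without WT-27 and -0.12 ± 0.47 without KO-03. Without both of these arrays, a fit chosen after the data were seen, it was 0.53 ± 0.16 (SE) and still did not pass (limma adjusted p = 0.144). Pnpla2, whose product G0s2 inhibits, was not high in WT-27, which ranked 5th of 7 arrays for it.

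Cd36 was measured by 3 probe sets, and all of them were highest in WT-27. The one used for the gene read 8.76 in WT-27, 7.68 in WT-103 and 7.90 in WT-104. In knockout it read 8.04, 7.61, 8.05 and 7.77, which spans the range of WT-103 and WT-104. The difference was -0.25 ± 0.25 (SE), with a 95% interval from -0.81 to 0.30 (limma adjusted p = 0.687). The second probe set gave -0.36 ± 0.26 (SE). The third, -0.34 ± 0.21 (SE), was at or under the floor on 4 of 7 arrays. The 3 pairs of probe sets differed in their differences by at most 0.11, with exact two-sided permutation p from 0.257 to 0.857. Without WT-27 the Cd36 difference turned from -0.25 to 0.074.

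**Figure D2:**
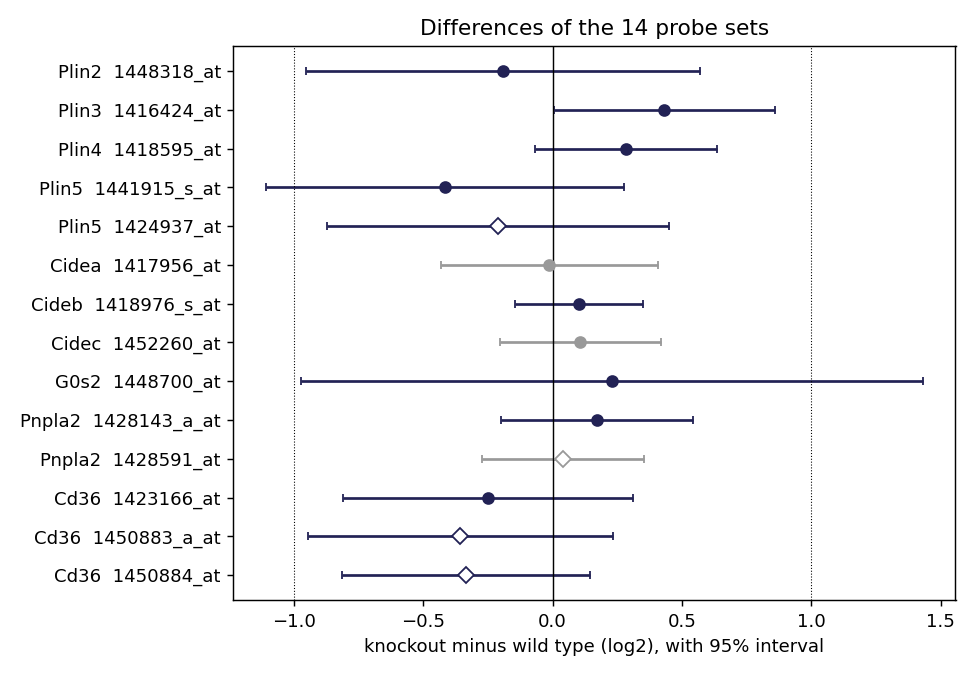
Knockout minus wild type difference (log2, points) with its 95% interval (bars) for the 14 probe sets, with dotted lines at a 2-fold change; filled circles are the probe sets used for the gene, open diamonds the others, and grey marks those that exceed the floor on none of the 7 arrays. The interval of Plin3 alone lies wholly above 0, by 0.0047 at its lower end in the fit over all probe sets, and the widest interval belongs to G0s2.

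WT-27 thus carried the high end of Plin2, Plin5, G0s2 and Cd36 at once, a set picked after their values were seen. Against the mean of WT-103 and WT-104, WT-27 was higher by 1.95 for G0s2 (3.87-fold), 1.24 for Plin5 (2.36-fold), 0.97 for Cd36 (1.96-fold) and 0.94 for Plin2 (1.92-fold). Few genes stood out so far in this animal. Only 0.104%, 0.286%, 0.495% and 0.577% of all genes had a gap at least as large as that of G0s2, Plin5, Cd36 and Plin2. All genes here include dim ones at or under the floor, whereas these members lay above it on every array. The median gap over all genes was -0.05. Among the other members above the floor on all arrays, the gap was 0.13 for Plin3, 0.04 for Pnpla2 and -0.12 for Cideb.

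KO-03 showed part of the same set. Against the mean of the other knockouts it was higher by 1.40 for G0s2, a gap that 0.192% of all genes reached, and by 0.89 for Plin2 (1.12% of genes). For Plin5 and Cd36 it was higher by 0.30 and 0.23, gaps that 10.1% and 14.4% of genes reached. By the probe sets used for the genes, KO-03 was 2nd of the 7 arrays for G0s2, Plin2 and Plin5 and 3rd for Cd36. The other Plin5 probe set did not set KO-03 apart, at 8.38 against 8.41, 8.31 and 8.42 in KO-90, KO-91 and KO-94. The second Cd36 probe set read 7.86 in KO-03 against 7.48 to 7.72 in the other knockouts. The third, near the floor, read 4.85 against 4.55 to 5.07. KO-03 was also the lowest knockout for the means of the cholangiocyte, stellate, macrophage and endothelial marker lists. It read 5.56 against 6.35 to 6.66 for cholangiocytes, 7.90 against 8.09 to 8.34 for stellate cells and 8.63 against 8.76 to 9.23 for macrophages. For endothelial markers it read 7.65 against 7.70 to 7.86. The adipocyte mean read 4.69 against 4.66 to 5.14. As 2 of its 4 measured markers were under the floor on all arrays, that mean gives no order of the arrays. The part of these cells in the levels of KO-03 was not tested. The spread within a genotype was 0.90 for G0s2, 0.56 for Plin2, 0.50 for Plin5 and 0.40 for Cd36 (SD, 5 degrees of freedom). Its median was 0.19 over all genes, dim ones included.

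**Figure D3:**
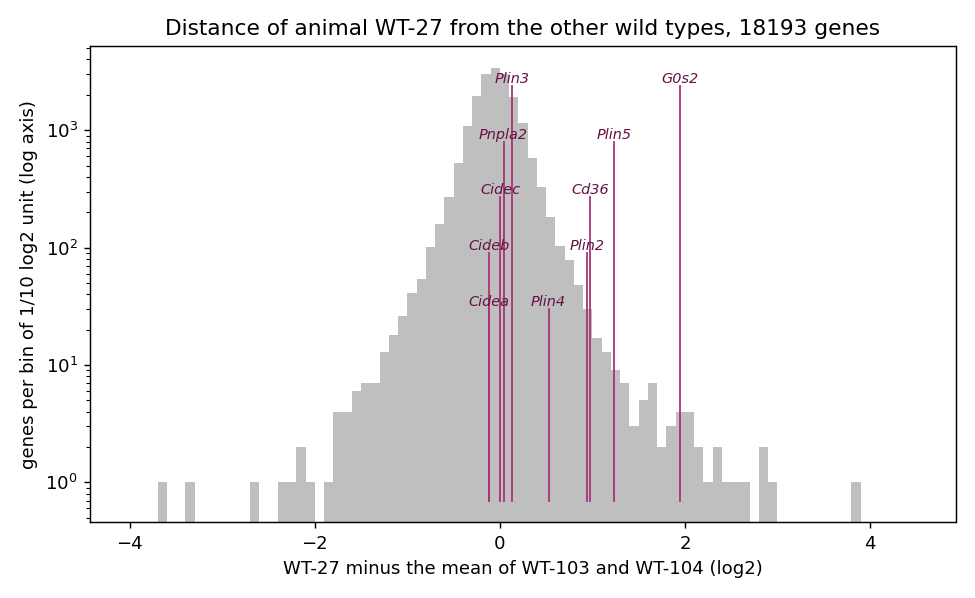
Histogram over 18193 genes of the log2 level in WT-27 minus the mean of WT-103 and WT-104, with the number of genes on a log axis; vertical lines mark the 10 members and their heights only separate the names. G0s2, Plin5, Cd36 and Plin2 lie in the right tail at 1.95, 1.24, 0.97 and 0.94, and the other members lie nearer to 0, of which Plin4, Cidea and Cidec are at or under the floor on most or all arrays.

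Target genes of PPARα were high in the same animals as these members. The list held 14 genes of fatty acid oxidation and the fasting response, of which 10 were measured, and WT-27 was the highest wild type for all 10. Its mean level was 10.06 in WT-27 and 10.17 in KO-03. It was 8.43 and 8.69 in WT-103 and WT-104, and 9.17, 9.32 and 9.07 in KO-90, KO-91 and then KO-94. WT-27 and KO-03 were thus the highest arrays for this mean too, and the other 3 knockouts lay between them and the remaining wild types. That order did not hold for every target, and the mean leans on those of widest range, such as Cyp4a14 at 7.38 to 12.13. Ppara, the receptor gene itself, read 10.95 in WT-27 and 10.86 in KO-03, and 8.81 to 10.21 in the other arrays. WT-27 and KO-03 also bear lower numbers in their titles than all the other arrays, and what these numbers stand for was not stated. What set WT-27 and KO-03 apart was not tested.

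Between the genotypes, 0 of the 10 measured PPARα targets passed, and 6 of 10 differences were above 0 (median 0.13, against 0.01 over all genes). The fatty acid hydroxylase Cyp4a14, the target with the smallest p, read 11.48, 7.88 and 7.38 in wild type and 12.13, 11.26, 10.78 and 10.19 in knockout. Only WT-27 overlapped the knockouts. Its difference was 2.18 ± 0.89 (SE) and was not called (limma adjusted p = 0.261). It was 3.46 without WT-27 (limma adjusted p = 0.0131) and 3.11 without WT-27 and KO-03 (limma adjusted p = 0.00310). These were the only 2 of 16 alternative fits in which Cyp4a14 passed. Both leave out the 1 wild type that overlapped, and the joint fit was chosen after the data were seen, so neither supports a call. Without WT-103 the limma adjusted p was 0.607. Cyp4a14 has close paralogs, so its signal may be shared with them. The carnitine transferase Cpt1a, which admits fatty acids to mitochondria, differed by 0.43 ± 0.21 (SE; limma adjusted p = 0.350).

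**Figure D4:**
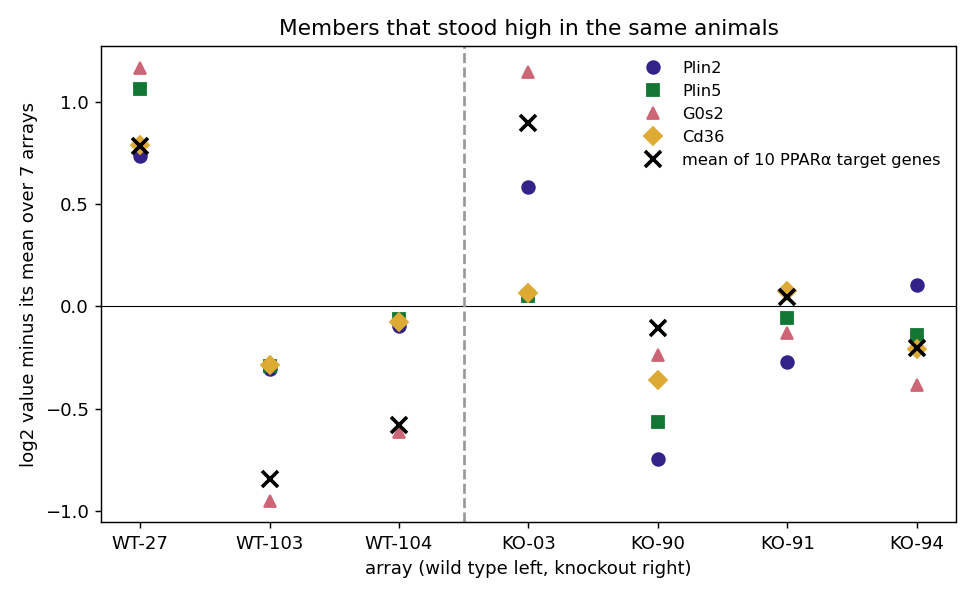
Log2 level of Plin2, Plin5, G0s2 and Cd36 and the mean of 10 PPARα target genes on each of the 7 arrays, each minus its own mean over the arrays; the dashed line separates wild type from knockout. All 5 are highest or second highest in WT-27, G0s2, Plin2 and the PPARα target mean are also high in KO-03, and G0s2 and the target mean are lowest in WT-103.

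The likeness of profiles was measured by the root mean square difference between log2 levels over the 7 arrays, each gene centred on its own mean. It gives no statement on shared function. Among the members, Plin5 and Cd36 were the closest pair at 0.14. The next pair was Cidea and Pnpla2 at 0.15, although Cidea lay under the floor throughout. The measure is also small for genes that vary little, so a small value alone does not show a shared pattern. Plin2 and Plin5 differed by 0.28, and G0s2 differed from Plin2, Plin5 and Cd36 by 0.49 to 0.55. For G0s2, the member with the largest SD over the arrays, the nearest genes were the fatty acid hydroxylase Cyp4a31 (0.26), the mitochondrial chaperone cofactor Grpel2 (0.27) and the mitochondrial carrier Slc25a47 (0.32). Plin2, the next in SD, was nearest to the stress kinase Map3k5 (0.18), the chaperone Hspa13 (0.19) and the pantetheinase Vnn1 (0.20). Vnn1 is also on the PPARα target list.

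Among genes that build, consume and feed droplets, Cav1 and Ahr rose and Bscl2 fell. These were 2 rises and 1 fall in 66 measured genes on 5 lists, a share near that of all genes, of which 2.58% were called higher and 0.951% lower. Among 14 genes of droplet formation and other droplet proteins, 1 rose and 1 fell (median 0.03). Bscl2, which encodes seipin, the protein at the sites in the endoplasmic reticulum where droplets form, read 10.02, 10.19 and 10.24 in wild type. It read 9.43, 9.46, 9.45 and 9.59 in knockout, so all knockouts lay below all wild types. It fell by 0.67 ± 0.11 (SE; limma adjusted p = 0.0137). The call was lost without WT-103, WT-104 or KO-91 (adjusted p = 0.0761, 0.0586 and 0.0510). The second probe set of Bscl2 differed by -0.38 and did not pass over all probe sets (adjusted p = 0.132).

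Cav1, a caveolar membrane protein found on droplets, also lies on that list and rose by 1.24 ± 0.23 (SE; limma adjusted p = 0.0250). It read 5.29 to 5.37 in wild type and 5.96, 6.93, 6.98 and 6.39 in knockout. The call was lost without any 1 of WT-27, WT-103, WT-104, KO-90 or KO-91, at adjusted p up to 0.100. Caveolin is abundant in endothelial and stellate cells. Of 8 measured endothelial markers 0 were called, and their mean was 7.65 to 7.75 in wild type and 7.65 to 7.86 in knockout. Of 7 stellate cell markers Pdgfrb, Dcn and Hand2 rose, and the list mean was 7.52 to 7.62 in wild type and 7.90 to 8.34 in knockout. The mean of 6 cholangiocyte markers was 4.47 to 4.71 in wild type and 5.56, 6.62, 6.66 and 6.35 in knockout. Of these markers 1 was under the floor on all arrays, and Tspan8 was under it in the 3 wild types. The wild-type mean is thus near the floor rather than a measured level. The part of these cells in the Cav1 difference was not tested.

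In lipolysis and triglyceride hydrolysis 0 of 11 measured genes passed (5 of 11 above 0, median -0.19, 1 gene under the floor on all arrays). Abhd5, the activator of the Pnpla2 lipase, differed by -0.22 ± 0.12 (SE) and the lysosomal lipase Lipa by -0.29 ± 0.17 (SE). In fatty acid uptake and activation 0 of 15 passed (4 of 15 above 0, median -0.19, 1 gene under the floor on all arrays). The bile acid and fatty acid CoA ligase Slc27a5 lay lower on every knockout array, 12.12 to 12.36 against 12.64 to 12.90, and just missed the threshold (-0.48 ± 0.12 (SE), limma adjusted p = 0.0620). It passed in 4 of 16 alternative fits, down to 0.0345 with a trended prior. Lipoprotein lipase, Lpl, differed by 0.85 ± 0.30 (SE; limma adjusted p = 0.191).

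Of 16 nuclear receptors and other regulators of lipid genes, 1 rose and 0 fell (9 of 16 above 0, median 0.04). It was Ahr, the aryl hydrocarbon receptor, a ligand-activated factor reported to control Cd36 in liver. Ahr rose by 0.78 ± 0.17 (SE; limma adjusted p = 0.0418), from 8.40 to 8.96 in wild type to 9.37 to 9.82 in knockout. The call was lost when any 1 array other than KO-03 was left out, with an adjusted p of at most 0.124, and the second probe set of Ahr, at 0.55, did not pass over all probe sets (adjusted p = 0.197). Ppara differed by -0.46 ± 0.45 (SE; limma adjusted p = 0.681) and Pparg, which is known to drive Cidec and Cd36 in fatty liver, by -0.02 ± 0.23 (SE; limma adjusted p = 0.928).

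The tissue label was checked against markers. All 7 measured hepatocyte markers were above the floor, with albumin, Alb, at 14.56 to 14.64 in wild type and 14.59 to 14.67 in knockout, and 0 of 7 were called. The aminotransferase Tat lay higher on every knockout array, by 0.90 ± 0.21 (SE; limma adjusted p = 0.0533), and passed in 4 of 16 alternative fits. Adipocytes hold Plin4, Cidea, Cidec and Cd36 in quantity, and 4 of their 7 listed markers were measured. Adipoq and Lep did not exceed the floor on any of the 7 arrays, Retn exceeded it on 5, and Fabp4, which other cells also carry, read 7.14 to 7.42 in wild type and 7.05 to 7.80 in knockout. The mean of these 4 markers was 4.66 to 4.77 in wild type and 4.66 to 5.14 in knockout, with 0 called. Macrophages carry Cd36 and Plin2 too. Of 10 macrophage markers 1, Cd14, rose, all 10 differences were above 0 (median 0.24), and the list mean was 8.09 in WT-27, 8.30 and 8.70 in the other wild types and 8.63 to 9.23 in knockout. Of 6 cholangiocyte markers 4 rose (Cd24a, Tspan8, Epcam and Krt19), and all 6 differences were above 0. The part of these cells in the members' levels was not tested.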

How the data were processed

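The authors deposited log2 values that RMA had produced in Partek Genomic Suite, per the labels and the series' design text. This method removes background, equalises the arrays' distributions by quantiles and summarises each probe set, so values are relative between arrays. Software versions were not stated. Of 45101 probe sets, 64 were controls and 34945 others had 1 gene symbol. The platform annotation gave several symbols for 932 and did not list 9211, counts that include some of the controls. A gene was represented by the probe set whose mean over all arrays was highest.

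Genotypes were compared by two-sided moderated tests (limma 3.58.1 under R 4.3.3, functions lmFit and eBayes, without covariates), with Benjamini-Hochberg adjustment over all 18193 genes, or over all 45037 probe sets, and a threshold of 0.05. The fit was tested on simulated data. Probe sets of 1 gene were compared by exact permutation over 35 splits, where the smallest possible p is 0.0286. Replicates are single animals, and their number limits the precision. The members, lists, tests and the floor for levels were chosen with results of these data known. Genes named were the members, Alb, every called list gene, otherwise the 2 of a pathway list with the smallest p, and the nearest profiles of the 2 most variable members. Ppara, Pparg, Tat, Adipoq, Lep, Retn and Fabp4 were named after their values were seen. Of 76 pathway genes, 66 were measured. Alternatives covered the prior, array weights, normalization, a filter on dim genes, the choice of probe sets and leaving out arrays. Target sites of miR-122 were not analysed here. Figures were drawn with matplotlib 3.10.9.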

Additional observations from a re-analysis of the deposited data

Results flagged for a closer look

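Of 25 sets of knockout values checked for 1 array far from the other 3 (14 probe sets and 11 list means), 1 stood out, about the number chance gives. G0s2 read 10.89 in KO-03, far above the other 3 knockout arrays at 9.36 to 9.62. The 3 wild-type arrays were not put to that check.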

How the results depend on the processing

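With limma, 0 of the 10 genes were called in any of 16 alternative fits and 0 of the 14 probe sets in any of 12. The filter on dim genes left out Plin4, Cidea and Cidec, which were thus tested in 15 fits. Applied to probe sets, it left out dim ones too. Leaving out 1 array at a time moved the difference from -0.41 to 0.12 for Plin2, -0.47 to 0.074 for Cd36 and -0.18 to 0.88 for G0s2. Cidea and the second Pnpla2 probe set, under the floor throughout, moved from -0.18 to 0.19 and from -0.029 to 0.12, values that measure no change. The same step moved other probe sets from -0.51 to 0.22 (Plin5) and -0.57 to 0.012 (Cd36). The gap between the second probe set of Cd36 and the third ran from -0.11 to 0.091, and between the first and the third from -0.0082 to 0.15. Without WT-27 and KO-03 together, Cd36 differed by 0.017 and the other Plin5 probe set by 0.21, and with the mean of all probe sets Fabp4 by -0.12. The cause was not tested. The count of pathway genes lower in knockout was 2, not 1, with a trended prior, array weights, the filter on dim genes or the mean of all probe sets. Without single arrays the counts were 0 to 3 higher and 0 to 1 lower. Over all genes 643 were called, 1253 with array weights and 169 (without WT-103) to 1144 (without KO-03) when 1 array was left out. Median centring and renewed quantile normalization changed the sign of 0 of the 10 members. No paired analysis was made, because neither litter nor any other pairing of the animals was stated. The floor limits Plin4, Cidea and Cidec, and the 7 arrays limit every other interval.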
